A study of Mus musculus with 8 samples.

Results

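The core cardiac transcription factors examined here are 10 genes, taken by symbol from the 52778 features of the expression table: Gata4, Gata6, Nkx2-5, Tbx5, Tbx20, Hand1, Hand2, Mef2c, Isl1 and Tbx3. Their transcripts were measured by RNA sequencing in ventricles of mouse embryos aged 11.5 days (E11.5), in 4 control and 4 mutant samples, the mutants having both copies of Atf4 shifted out of frame. The control embryos are labelled C57BL/6 WT, received no treatment and carry the intact gene. The mutant embryos, Atf4(del7/del7), lack 7 bases of exon 3 in every cell, removed with CRISPR/Cas9. The genotype field of the mutant samples also reads C57BL/6 WT, so the genotype was taken from the sample titles. Those titles name the tissue only as heart. The labels give all 8 samples the batch number 1 and call the 4 of each genotype biological replicates, without naming litters or clones. Expression is in TPM, a transcript level scaled for transcript length and library total, so levels of different genes can be set side by side.

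These factors form the regulatory core of the embryonic heart. GATA4 and GATA6 are zinc finger proteins, NKX2-5 and ISL1 are homeodomain proteins, TBX5, TBX20 and TBX3 belong to the T-box family, HAND1 and HAND2 are basic helix-loop-helix proteins and MEF2C is a MADS-box protein. They bind shared enhancers of contractile, ion channel and signalling genes and regulate each other. They also divide the heart into regions: TBX5 is strongest in the atria and left ventricle, HAND1 marks the left ventricle and outflow tract, HAND2 is strong in the right ventricle and outflow tract, ISL1 marks progenitors of the second heart field, and TBX3 marks the conduction system and the atrioventricular canal. ATF4, the factor lost in the mutants, is a basic leucine zipper protein that drives genes of amino acid synthesis and tRNA charging.

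No core cardiac transcription factor changed past the threshold between genotypes. Of the 10 members, 9 passed the filter on low values, a TPM of 1 or more in 4 or more of the 8 libraries, and 0 of these 9 reached an adjusted p below 0.05 (limma, Benjamini-Hochberg over 15545 genes). The share of all tested genes past that threshold was 0.0386%, with 0.00643% higher and 0.0322% lower in mutant hearts. Before correction, 2 of the 9 members had p below 0.05, Nkx2-5 and Hand1, both with a higher mean in the mutants, against 6.10% of all tested genes in either direction, 2.65% higher and 3.45% lower. The 4 mutant values overlapped the 4 control values in all 10 members, a count of 0 without overlap, against 3.68% of tested genes whose groups did not overlap, 1.63% higher and 2.05% lower. Among the 9 tested members 7 had a log2 fold change above 0, against 48.2% of all tested genes, and their median was 0.067, against -0.0033 over all tested genes. These 7 include Tbx20 at 0.0035, whose sign changed in alternatives of the analysis.

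**Figure D1:**
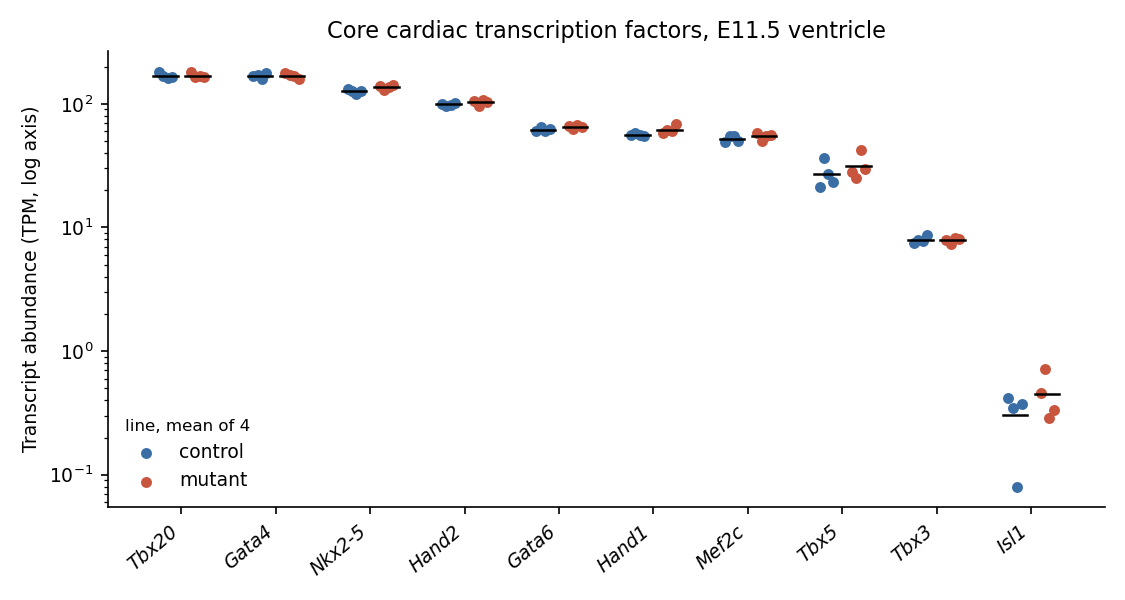
Transcript level of each member in TPM on a log axis, one point per library, control in blue and mutant in red, with the mean of 4 libraries as a line. Genes run from the highest to the lowest mean, from Tbx20 at 169.0 TPM to Isl1 at 0.376 TPM, and the points of the genotypes overlap in every gene.

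The levels spanned the range from highly abundant to barely detected. Over the 8 libraries Tbx20 averaged 169.0 TPM and Gata4 168.5 TPM, and each exceeded the other in 4 of the 8 libraries, so these do not differ beyond their spread. Nkx2-5 followed at 131.6 TPM, Hand2 at 101.0 TPM and Gata6 at 63.4 TPM, each below its predecessor in all 8 libraries with no overlap of their ranges. Hand1 averaged 59.1 TPM and lay below Gata6 in 7 of 8 libraries, with overlapping ranges. Mef2c averaged 53.4 TPM and lay below Hand1 in 7 of 8 libraries, again with overlap. Tbx5 at 29.2 TPM, Tbx3 at 7.91 TPM and Isl1 at 0.376 TPM were each lower than the preceding gene in all 8 libraries.

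The GATA factors, which open and activate cardiac enhancers, were close to constant. Gata4 (chromosome 14, bases 63198914 to 63271712, minus strand, GRCm38) held 168, 171, 158 and 177 TPM in the controls and 177, 170, 167 and 160 TPM in the mutants. Highs and lows were mixed over the genotypes, with means of 168.6 ± 7.77 and 168.4 ± 7.32 TPM (SD, n = 4 each). Its log2 fold change, on the log2(TPM + 1) scale used for every fold change here, was -0.0018 with a 95% confidence interval from -0.10 to 0.097. Gata6 (chromosome 18, bases 11052510 to 11085636, plus strand) held 60.7, 64.3, 59.7 and 62.8 TPM in the controls and 65.5, 62.6, 66.8 and 64.7 TPM in the mutants. Of the mutant libraries 3 lay above every control, and replicate 2 lay within the control range. For Gata6 the log2 fold change was 0.067, with an interval from -0.016 to 0.15 (limma adjusted p of 0.849). The ratio of Gata4 to Gata6 TPM was 2.72 ± 0.0814 in control and 2.60 ± 0.131 in mutant libraries (SD, n = 4 each), with overlapping ranges, and was not tested.

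The homeodomain factors stood far apart in level, Nkx2-5 among the abundant members and Isl1 the lowest. Nkx2-5 (chromosome 17, bases 26838664 to 26844988, minus strand), needed for chamber growth and differentiation, held 131, 127, 121 and 127 TPM in the controls. In the mutants it held 140, 129, 138 and 141 TPM, so 3 mutant libraries lay above all controls and mutant replicate 2 lay just below control replicate 1. The means were 126.4 ± 4.21 and 136.8 ± 5.40 TPM (SD, n = 4 each). In log2 units the difference of 0.11 (standard error 0.039, interval from 0.026 to 0.20) had an unadjusted p of 0.0163 and an adjusted p of 0.780 in limma, so the difference failed the correction.

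Isl1 (chromosome 13, bases 116298270 to 116309688, minus strand) reached 1 TPM in 0 of the 8 libraries and was therefore not among the genes tested. The controls held 0.419, 0.345, 0.0802 and 0.370 TPM and the mutants 0.461, 0.714, 0.285 and 0.336 TPM. The lowest value was in control replicate 3 and the highest in mutant replicate 2, and the remaining libraries were interleaved. A fit with no filter, chosen for this gene after the data were seen, gave a log2 fold change of 0.15 with an interval from -0.13 to 0.43 (limma adjusted p of 0.865). At this level the added pseudocount of 1 exceeds the value itself, so the scale compresses any change. The ratio of Isl1 to Nkx2-5 stayed between 0.000665 and 0.00554 in every library, and the ranges of the genotypes overlapped.

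The T-box factors differed in how variable they were. Tbx20 (chromosome 9, bases 24720812 to 24774303, minus strand), a factor of chamber myocardium and endocardium, held 182, 167, 160 and 166 TPM in the controls and 181, 165, 167 and 164 TPM in the mutants. Replicate 1 was the highest library in each genotype, and the other 3 libraries of each genotype lay close together. Its log2 fold change was 0.0035 with an interval from -0.10 to 0.11. Tbx3 (chromosome 5, bases 119670534 to 119684724, plus strand), a repressor of chamber genes, ranged from 7.55 to 8.66 TPM in the controls and from 7.35 to 8.14 TPM in the mutants. Its log2 fold change was -0.011 with an interval from -0.16 to 0.14.

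The start of Tbx20 is shown because it is among the most abundant members, level with Gata4, and no other listed feature overlaps it. The 250 bases before its start lie at chr9:24774304-24774553 on the minus strand of GRCm38.p6 (RefSeq) and are 68.8% G or C with 22 CpG pairs, against medians of 52.4% and 6 over 32851 such RefSeq windows. Capitals, here and in the other sequences, mark matches to the motifs spelled out further on, and this stretch has none.
Tbx20: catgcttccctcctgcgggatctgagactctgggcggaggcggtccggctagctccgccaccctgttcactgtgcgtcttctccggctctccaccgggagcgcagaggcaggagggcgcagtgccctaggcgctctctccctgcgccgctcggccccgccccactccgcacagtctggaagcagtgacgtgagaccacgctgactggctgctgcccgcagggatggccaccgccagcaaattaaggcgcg

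Tbx5 (chromosome 5, bases 119796514 to 119885220, plus strand), which activates chamber genes together with NKX2-5 and GATA4, was the most variable of the tested members. The controls held 21.4, 36.7, 27.2 and 23.1 TPM and the mutants 28.1, 24.97, 42.5 and 29.8 TPM. Control replicate 2 and mutant replicate 3 were the high libraries, and the genotypes overlapped widely. The coefficient of variation over the 8 libraries was 24.4%, higher than that of 88.5% of the tested genes, while 8 of the 10 members had one below 10%. The log2 fold change of 0.20 had a standard error of 0.19 and an interval from -0.22 to 0.62 (limma adjusted p of 0.927). It was 0.051 without mutant replicate 3 and 0.35 without control replicate 2, and 0.10 without control replicate 1. The ratio of Tbx5 to Tbx20 ranged from 0.117 to 0.220 in the controls and from 0.152 to 0.255 in the mutants, and that of Tbx3 to Tbx5 from 0.215 to 0.375 and from 0.191 to 0.294.

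The spread of Tbx5 was set beside other values from the same libraries. Gm5563, an opposite-strand feature that shares 26660 bases with the Tbx5 span, was also highest in control replicate 2 (9.48 TPM) and in mutant replicate 3 (10.3 TPM). The remaining controls held 6.09 to 7.98 TPM of it and the remaining mutants 6.87 to 7.27 TPM. The low controls differed, Tbx5 being lowest in control replicate 1, where Gm5563 held 7.66 TPM, and Gm5563 in control replicate 3. Whether the authors counted by strand is not given in the sources used here, so reads of Tbx5 and Gm5563 may not be told apart. The mean log2(TPM + 1) of 8 atrial cardiomyocyte markers was lowest among the controls in control replicate 2, at 5.83 against 5.87 to 5.95. Among the mutants this mean was highest in mutant replicate 3, at 6.00 against 5.84 to 5.91. Those 8 include Sln, which did not pass the filter and held 0.177 TPM in control replicate 2 and 0.654 TPM in control replicate 4. Control replicate 4 had the next lowest mean, so which of them was lowest rests on a gene near the floor. The part of either measure in the Tbx5 values was not tested.

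**Figure D2:**
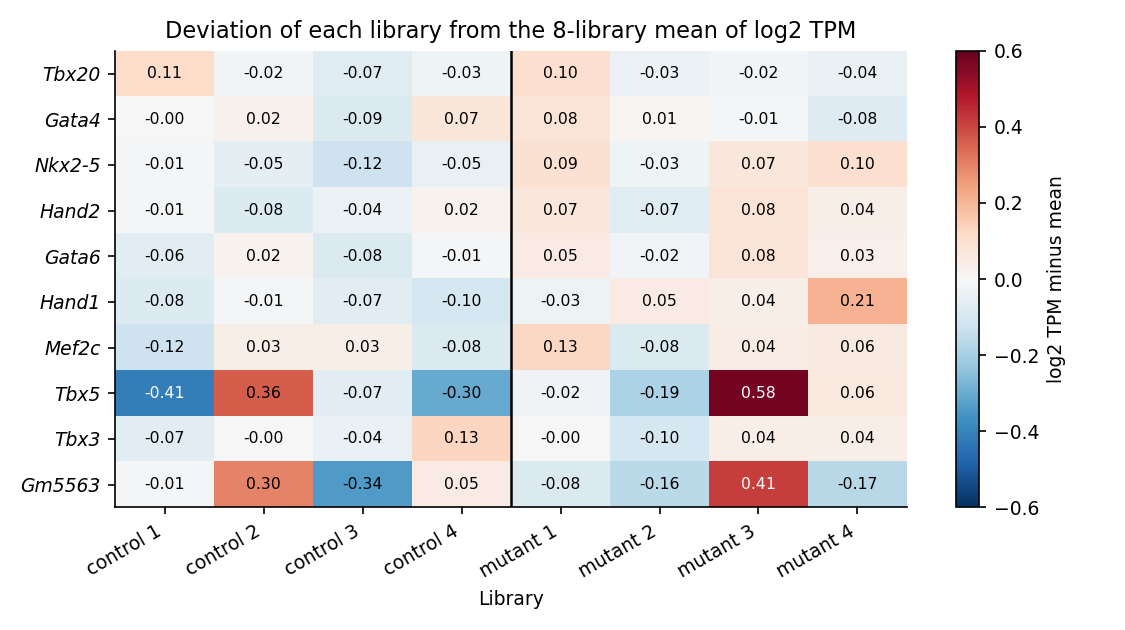
Deviation of each library (columns, controls left of the line and mutants right) from the mean log2 TPM of the 8 libraries for the 9 tested members and Gm5563 (rows), in log2 units. Tbx5 departs most, reaching -0.41 (control replicate 1) and 0.58 (mutant replicate 3), and Gm5563 is also high in control replicate 2 and mutant replicate 3.

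The HAND factors, which pattern the left and right ventricle, were both abundant. Hand1 (chromosome 11, bases 57828713 to 57832147, minus strand) held 55.8, 58.4, 56.3 and 54.8 TPM in the controls and 57.7, 60.9, 60.4 and 68.1 TPM in the mutants. Mutant replicate 4 was the highest of the 8 libraries, and mutant replicate 1 lay below control replicate 2. The means were 56.3 ± 1.54 and 61.8 ± 4.46 TPM (SD, n = 4 each). Its log2 fold change of 0.13 (standard error 0.051, interval from 0.014 to 0.24) had an unadjusted p of 0.0313 and an adjusted p of 0.809 in limma. Without mutant replicate 4, the log2 fold change was 0.082.

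Hand2 (chromosome 8, bases 57320983 to 57324517, plus strand) held 100.1, 95.3, 98.4 and 102 TPM in the controls and 106, 95.9, 107 and 103 TPM in the mutants. Of the mutant libraries 3 lay above every control, and mutant replicate 2 lay near the lowest control. Its log2 fold change was 0.055 with an interval from -0.038 to 0.15 (limma adjusted p of 0.903). It was 0.089 without mutant replicate 2 and 0.037 without control replicate 2. The ratio of Hand1 to Hand2 was 0.570 ± 0.0328 in control and 0.601 ± 0.0542 in mutant libraries (SD, n = 4 each), with overlapping ranges.

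Mef2c (chromosome 13, bases 83504017 to 83667079, plus strand), a direct activator of muscle genes, held 48.9, 54.6, 54.6 and 50.3 TPM in the controls and 58.2, 50.3, 54.9 and 55.4 TPM in the mutants. Of the mutant libraries 3 lay above every control and mutant replicate 2 lay at the level of control replicate 4. The log2 fold change was 0.069 with an interval from -0.055 to 0.19 (limma adjusted p of 0.906). It was 0.039 without mutant replicate 1, 0.040 without control replicate 1 and 0.11 without mutant replicate 2. The table gives a single value for the gene, although the RefSeq table holds 3 starts for it, so use of one start or another was not measured. The 250 bases before the first of them, shown as the contrast to Tbx20, lie at chr13:83503784-83504033 on the plus strand of GRCm38.p6. They are 33.6% G or C with 1 CpG pair, and they run past base 83504017, where the gene span begins.
Mef2c: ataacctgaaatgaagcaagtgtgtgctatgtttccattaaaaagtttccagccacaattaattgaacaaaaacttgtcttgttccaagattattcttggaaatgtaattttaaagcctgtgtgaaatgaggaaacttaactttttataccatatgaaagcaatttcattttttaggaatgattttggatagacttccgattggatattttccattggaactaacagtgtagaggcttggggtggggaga

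**Figure D3:**
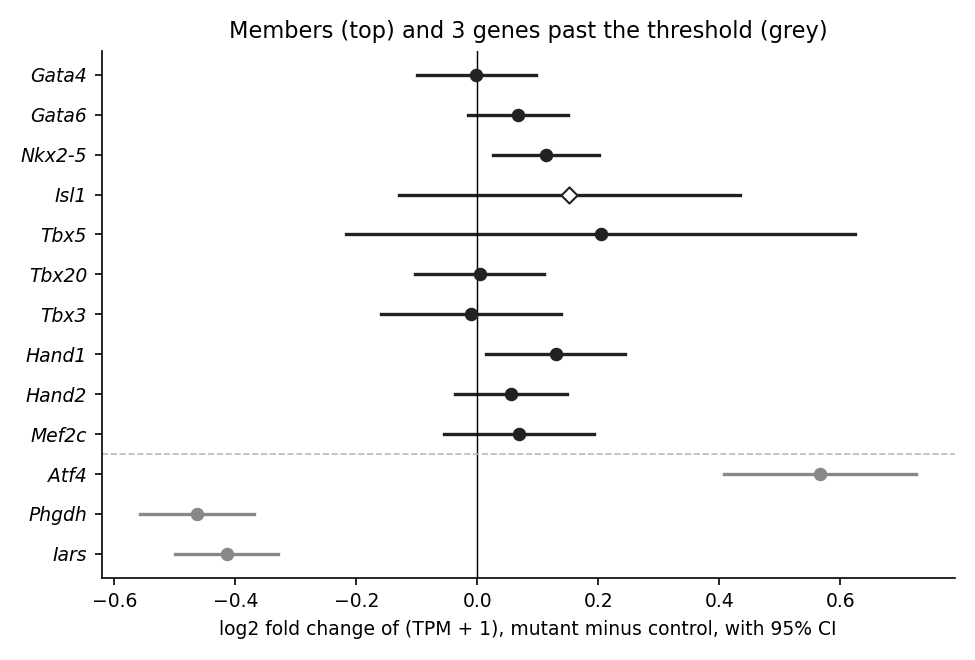
Log2 fold change of TPM + 1, mutant minus control, with its 95% confidence interval, for the 10 members in black and for Atf4, Phgdh and Iars in grey. Isl1 (open diamond) comes from the fit with no filter, and the intervals of Nkx2-5 and Hand1 lie above 0 before any correction for the number of genes tested.

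The precision of these values can be read against genes past the adjusted threshold. Phgdh, an enzyme of serine synthesis driven by ATF4, fell by 0.46 on the log2 scale (interval from -0.56 to -0.37, limma adjusted p of 0.00883), and Iars, a tRNA synthetase gene, fell by 0.41 (interval from -0.50 to -0.33, limma adjusted p of 0.00883). The lowest bound among the 9 tested members was -0.22, for Tbx5, which lies above both intervals. Without Tbx5 the intervals of the remaining 8 members lay between -0.16 and 0.24. The Atf4 transcript was higher in the mutants, by 0.57 on the log2 scale (limma adjusted p of 0.0430), so its level does not mark the deletion and the genotypes rest on the labels. All 3 calls were lost with no filter, with no variance trend, with the replicate number as a block, and without control replicate 2, 3 or 4, settings in which 0 genes passed over the whole table.

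Several members are flanked by other transcripts, which were measured in the same libraries. All features that overlapped a member or lay within 10000 bases of it were examined, a window chosen after the data were seen, and 0 of the 9 that passed the filter had an adjusted p below 0.05 in limma. At an unadjusted p below 0.05 there were 2, LOC115488773 and Hand2os1, both with a lower mean in the mutants, where 6.10% of all tested genes had such a p and 3.45% had one with a lower mean. LOC115488773 lies 6247 bases upstream of Nkx2-5 on the same strand. It held 7.38, 7.505, 7.51 and 7.09 TPM in the controls and 5.82, 6.36, 6.14 and 6.14 TPM in the mutants, so every mutant library lay below every control, as in 2.05% of all tested genes. This log2 fold change of -0.23 (standard error 0.060) had an unadjusted p of 0.00339 and an adjusted p of 0.720 in limma.

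Hand2os1 is transcribed away from Hand2 on the opposite strand, with 123 bases between their starts. It averaged 80.5 TPM over the 8 libraries, below the 101.0 TPM of Hand2. Hand2os1 held 87.6, 88.2, 78.3 and 81.5 TPM in the controls and 78.2, 78.5, 76.0 and 75.8 TPM in the mutants. All but one of the mutant libraries lay below every control. For Hand2os1 the log2 fold change was -0.12 (standard error 0.043, unadjusted p of 0.0219, limma adjusted p of 0.800), while that of Hand2 was 0.055. Hdnr and Gm34030, on the far side of Hand2, had log2 fold changes of -0.11 and -0.060 (limma adjusted p of 0.843 and 0.969). The 250 bases before the Hand2 start are shown because they hold the stretch that separates it from the Hand2os1 start. They lie at chr8:57320733-57320982 on the plus strand of GRCm38.p6, and the Hand2os1 span ends inside them at base 57320859. Both stretches in capitals lie inside the Hand2os1 span, and the last 123 bases, between the starts, hold none.
Hand2: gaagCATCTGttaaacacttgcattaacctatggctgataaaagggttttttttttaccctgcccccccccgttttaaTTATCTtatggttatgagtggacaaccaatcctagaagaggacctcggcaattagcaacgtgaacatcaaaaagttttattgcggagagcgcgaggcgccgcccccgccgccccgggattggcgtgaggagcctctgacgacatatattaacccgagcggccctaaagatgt

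Gata6os, the opposite-strand transcript that shares 58 bases with Gata6, held 20.6 ± 1.30 TPM in control and 19.8 ± 0.614 TPM in mutant libraries (SD, n = 4 each). Gm32915, which shares 40 bases with Hand1 on the opposite strand, held 4.24 ± 0.976 and 4.36 ± 0.413 TPM. Tbx3os1, which shares 975 bases with Tbx3, did not pass the filter and reached at most 0.967 TPM. In all, 5 of the 10 members shared bases with a further entry of the table, and the 2 entries inside Mef2c reached at most 0.505 TPM.

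**Figure D4:**
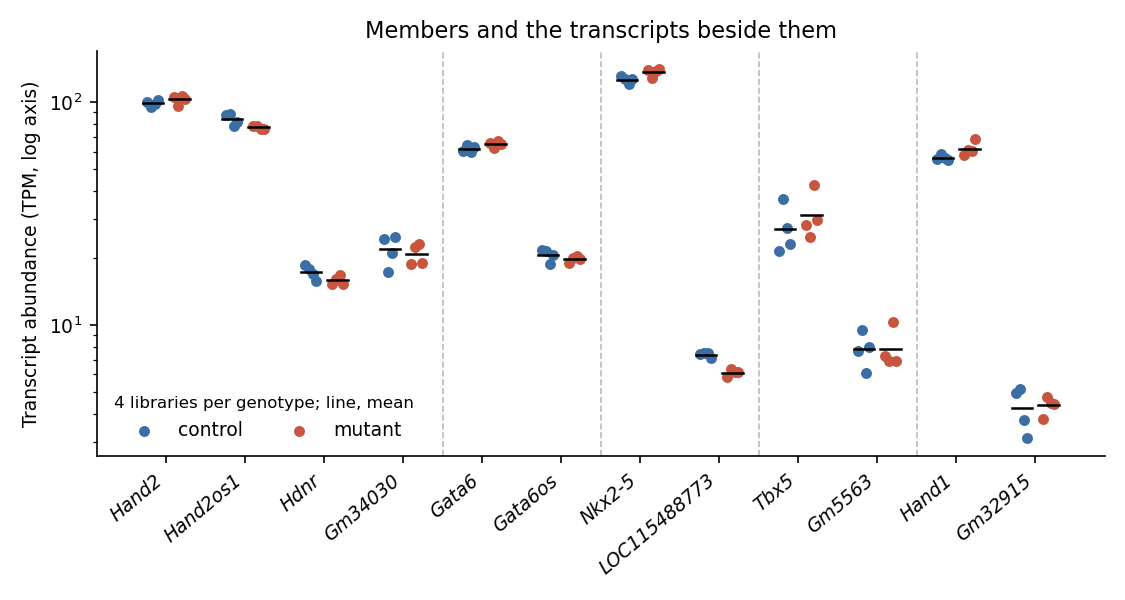
Transcript level in TPM on a log axis of 5 members and the transcripts that overlap or flank them, separated by dashed lines, one point per library with the mean of 4 as a line. The mutant points of LOC115488773 lie below all control points, and those of Hand2os1 overlap the controls only narrowly.

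Promoter windows of 300 bases, from 250 before to 50 after each RefSeq start, were found for 5 of the 10 members in 7 windows. These members are Hand2, Tbx20, Mef2c with 3, Isl1 and Nkx2-5. The starts used for Mef2c and Nkx2-5 lie inside their gene spans. Both strands were searched. The ATF4 composite element, spelled TGATGNAA, matched 0 of the 7 windows and 3.97% of all 32851 windows, and the cAMP response element TGACGTCA matched 0 of 7 and 1.79% of all. The GATA letters AGATAA were found in the windows of Hand2 and Isl1, and in 11.2% of all windows. The E-box CATCTG, read by HAND factors, was found in Hand2 and in the window of 1 Mef2c start, and in 17.2% of all. The T-box letters AGGTGT matched the window of 1 other Mef2c start and 13.7% of all. The NKX2-5 letters TNAAGTG (11.5% of all windows) and the MEF2 consensus (3.69% of all) matched none of the 7. In the Hand2 sequence the first capitals are the E-box, which begins 246 bases before the start, and the second are the GATA letters in reverse, which begin 172 bases before it. No matches to different motifs overlapped in the 7 windows. Such matches describe letters only.

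Genes that work with these factors were compared as lists, and 0 genes of the 5 lists passed the adjusted threshold in limma. The counts at an unadjusted p below 0.05 stand beside 6.10% of all tested genes, and those without overlap beside 3.68%. Of 41 partner factors 34 were tested, 20 with a higher and 14 with a lower value in the mutants. Their median log2 fold change was 0.012, and 3 had an unadjusted p below 0.05 in limma, 2 higher and 1 lower. The most abundant partner was Smyd1, a muscle methyltransferase gene, at 380.4 ± 3.21 TPM in control and 382.2 ± 17.4 TPM in mutant libraries (SD, n = 4 each). Foxc2, a forkhead factor of the outflow tract, held 16.6 ± 1.17 and 19.0 ± 0.757 TPM with no overlap between genotypes (unadjusted p of 0.0115, limma adjusted p of 0.780). Zfpm1, a cofactor that binds GATA proteins, held 17.3, 20.3, 16.2 and 12.4 TPM in the controls and 30.5, 14.4, 42.0 and 26.1 TPM in the mutants. Its mutant values spread from below the control mean to above every control, and the log2 fold change of 0.66 had a standard error of 0.27 (unadjusted p of 0.0372, limma adjusted p of 0.809).

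Of 26 genes for inducing signals, their receptors and mediators, 23 were tested, 15 higher and 8 lower, with a median of 0.012 and 2 at an unadjusted p below 0.05, both higher. Bmp10, a growth factor of the trabeculae, held 107, 109, 112 and 108 TPM in the controls and 144, 120, 128 and 125 TPM in the mutants. All mutant libraries lay above all controls. The mutant excess of 0.24 in log2 units (standard error 0.052) had an unadjusted p of 0.00108 and did not pass the correction (limma adjusted p of 0.549). Bmp5 held 19.7 ± 0.701 and 22.9 ± 1.87 TPM (SD, n = 4 each), with overlap (unadjusted p of 0.00911, limma adjusted p of 0.780). Ctnnb1, the gene for beta-catenin, was the most abundant of the list at 468.1 ± 5.27 and 474.9 ± 13.9 TPM.

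Of 32 cardiac target genes 31 were tested, 15 higher and 16 lower, with a median of -0.0092. With an unadjusted p below 0.05 there were 4, 3 higher and 1 lower. Myl7, an atrial light chain also made in the early ventricle, held 3312 ± 143 and 3646 ± 180 TPM (SD, n = 4 each, unadjusted p of 0.0186, limma adjusted p of 0.783). Csrp3, a muscle LIM protein gene, held 896.9 ± 20.6 and 846.9 ± 28.6 TPM (unadjusted p of 0.0376, limma adjusted p of 0.809). Actc1, cardiac alpha-actin, was the most abundant at 13506 ± 120 and 13382 ± 399 TPM. Nppa, a classic joint target of GATA4, NKX2-5 and TBX5 named here outside the naming rule, ranged from 2283 to 3272 TPM in the controls and from 2666 to 3762 TPM in the mutants.

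The lists for regions where ISL1 and TBX3 act were only in part expressed. Of 16 genes of the second heart field and outflow tract 7 passed the filter, 5 higher and 2 lower with a median of 0.018. Besides Foxc2, Rgs5 held 0.993 ± 0.0776 and 1.29 ± 0.155 TPM without overlap (unadjusted p of 0.0772 in limma). Its values lay at the filter, from 0.910 to 1.10 TPM in the controls and from 1.13 to 1.49 TPM in the mutants. It passed the filter through the mutant libraries, so its separation is not independent of the filter. Sema3c, a guidance signal of the outflow tract, was the most abundant at 23.4 ± 2.64 and 22.9 ± 2.64 TPM (SD, n = 4 each). Of 16 genes of the sinus node, atrioventricular canal and conduction system 11 passed, 8 higher and 3 lower with a median of 0.055. Tbx18 held 36.2 ± 1.95 and 32.5 ± 3.08 TPM (unadjusted p of 0.0452, limma adjusted p of 0.809), and Cacna1g, a T-type calcium channel gene, held 1.63 ± 0.250 and 1.26 ± 0.0829 TPM without overlap (unadjusted p of 0.0632). Id2 was the most abundant of that list at 224.8 ± 1.55 and 228.2 ± 7.06 TPM. In these libraries Shox2, a sinus node factor, reached at most 0.749 TPM and Tbx1, a second heart field factor, at most 0.0483 TPM.

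**Figure D5:**
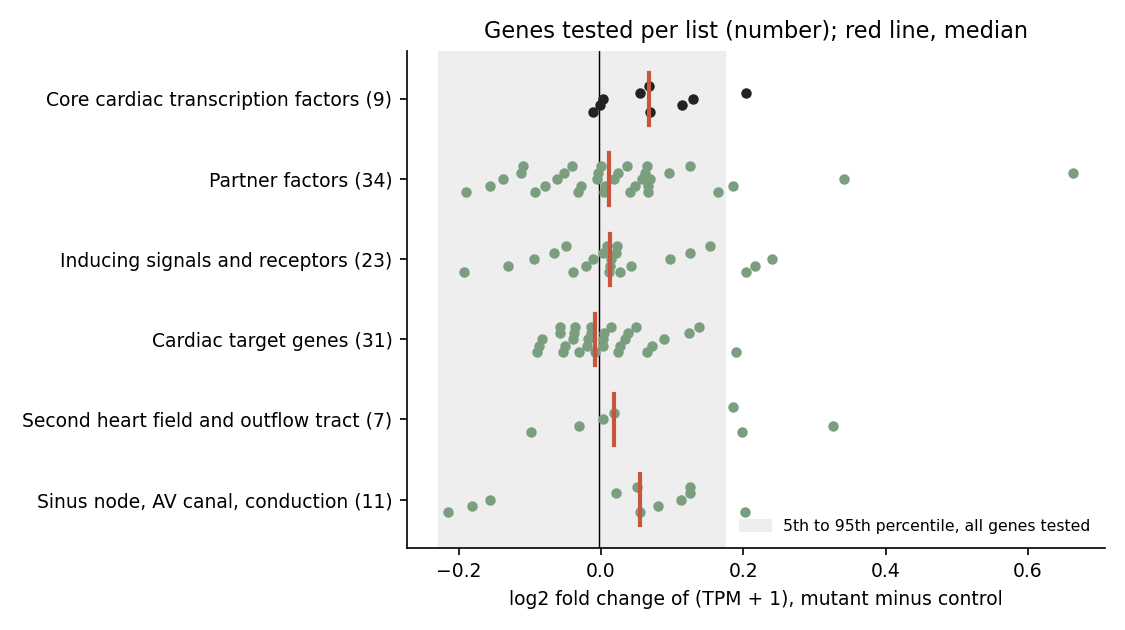
Log2 fold change of TPM + 1, mutant minus control, for each tested gene of the core factors and of 5 related lists, with the number tested in brackets and the median as a red line. The grey band spans the 5th to 95th percentile of all tested genes, from -0.23 to 0.17, and the 9 core factors lie within it except Tbx5 at 0.20.

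The tissue label was checked with marker genes. All 7 ventricular cardiomyocyte markers passed the filter, with Myl2 between 10631 and 11979 TPM, and 7 of 8 atrial markers passed as well. Among the atrial markers the light chain gene Myl4 averaged 4188 TPM and Nr2f2, an atrial identity factor, 10.7 TPM over the 8 libraries, while Sln reached at most 0.654 TPM. The markers therefore do not show that the tissue was free of atrial muscle. Endocardial, epicardial and cushion mesenchyme markers all passed the filter, so the tissue holds other cells than cardiomyocytes, and in such a mixture fewer cells of a type cannot be told apart from less RNA per cell. The protocol of the samples names cultured cortical neurons, and of 7 neural crest and neuronal markers 3 passed the filter, with Tubb3 at most 11.8 TPM. Of 8 pharyngeal and foregut epithelium markers only Krt8 passed the filter, while Epcam, the next highest, reached at most 0.663 TPM. Of 5 hepatocyte markers 0 passed. Macrophage markers were low, and their summed level was 13.7 to 21.4 TPM in the controls and 8.67 to 12.8 TPM in the mutants, without overlap. Gene by gene, C1qb and Mrc1 did not overlap, as in 2.05% of all tested genes with every mutant lower, and Cd68, Csf1r, C1qa and Adgre1 did. Of these 6 genes 5 were tested, all with lower values in the mutants and none past the adjusted threshold. In the mutants C1qb held 0.798 to 2.45 TPM and Mrc1 0.762 to 1.11 TPM, close to the filter. Erythroid markers summed to 3570 to 6088 TPM in the controls and 3259 to 4584 TPM in the mutants. All 8 erythroid genes were tested, 7 lower and 1 higher in the mutants, at a median log2 fold change of -0.35. With an unadjusted p below 0.05 in limma there were 2, both lower, against 3.45% of all tested genes. The groups overlapped in every erythroid gene, and 0 passed the adjusted threshold. The part of these cells in the members' values was not tested.

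For the 3 members with the largest coefficient of variation, the tested genes with the most similar deviations from the group means over the 8 libraries were listed as a description, being the highest of 15545 and therefore not tested. For Isl1 these were Mthfd1l (Pearson r of 0.978, Spearman rho of 0.929), Lockd (0.962 and 0.929) and Shcbp1 (0.950 and 0.976). For Tbx5 they were Elk1 (r of 0.975, rho of 0.952), Gm46949 (0.959 and 0.762) and Rtn4rl1 (0.955 and 0.929). For Hand1 they were Gm35150 (r of 0.968, rho of 0.738), Cyria (0.959 and 0.857) and Gm22317 (0.959 and 0.952). Without the 2 libraries farthest from the median of the member, r ranged from 0.681 for Gm46949 to 0.945 for Rtn4rl1.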

How the data were processed

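Total RNA of 8 libraries was sequenced, 4 per genotype. The design text names TRIzol and a stranded mRNA kit, while the protocol of each sample names a column kit and ribosomal RNA depletion. The authors deposited 1 table of TPM values, with a column per library summing to between 923473 and 949762. Per the submitters' processing notes, FastQC, Trim Galore 0.6.7, HISAT2 2.2.1, StringTie 2.2.1, featureCounts and DESeq2 were used with GRCm38, and the role of each is not given in the sources used here. TPM keeps no read depth, so no counting interval is given. All 10 members matched RefSeq GRCm38.p6 by symbol with identical coordinates.

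Values were taken as log2(TPM + 1), genes at 1 TPM or above in 4 or more libraries were kept, and genotypes were compared in limma 3.58.1 (R 4.3.3) with a variance trend and no covariate. P-values are two-sided and adjusted by Benjamini-Hochberg over 15545 genes at 0.05. The fit was also run on simulated data, with independent noise for each gene and shifts larger than those of the tested members. That run does not measure power at shifts as small as theirs. Other steps ran in Python 3.11.15 (pandas 2.3.3, matplotlib 3.10.9, numpy 2.4.6). Alternatives covered the pseudocount, filter, scaling, variance model, library weights, the replicate number as a block and each library left out. The members and lists were chosen with earlier results of these data known. In each list the genes named are up to 3 past the threshold, otherwise the 2 with the smallest p and the most abundant. Beside these are 3 reference genes and, for the 3 most variable members, the 3 closest patterns. Where nothing says that replicates came from separate litters, p-values measure the spread between these samples.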

Additional observations from a re-analysis of the deposited data

Results flagged for a closer look

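In 98 groups of 4 libraries, over the members, their neighbours, the named list genes, the ratios and the marker lists, 5 held a library far from the other 3 by Dixon's criterion, against 4.9 by chance at a rate of 5%. Tbx20 reached 181 TPM in mutant replicate 1, where the other mutants held 164 to 167 TPM. Gm5563, opposite Tbx5, reached 10.3 TPM in mutant replicate 3, the others holding 6.87 to 7.27 TPM. Smyd1 stood at 376 TPM in control replicate 4, below the 382 TPM of each other control. Csrp3 stood at 889.8 TPM in mutant replicate 1 and at 831 to 834 TPM in the remaining mutants. Cacna1g stood at 2.00 TPM in control replicate 3 and at 1.47 to 1.52 TPM in the remaining controls.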

How the results depend on the processing

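Under all 17 alternatives, 0 of the core factors passed the adjusted threshold in limma, the lowest adjusted p being 0.679, and between 1 and 3 had an unadjusted p below 0.05. The direction of Gata6, Nkx2-5, Tbx5, Hand1, Hand2 and Mef2c was the same in all 17. The other 3, all near 0, changed sign. Gata4 had log2 fold changes of 0.0054 with median-of-ratios scaling and 0.0016 to 0.0234 (0.0058 and 0.0217 between) without control replicate 2 or 4 or mutant replicate 3 or 4, in a range from -0.0312 to 0.0234 with a library left out. Tbx20 had -0.0021 with quantile normalization, -0.0017 with TPM rescaled without mitochondrial and haemoglobin genes, -0.0068 with weights per library, and -0.0294 to -0.0016 (-0.0205 and -0.0049 between) without mutant replicate 1 or control replicate 2, 3 or 4, in a range up to 0.0409. Tbx3 had 0.0025 with quantile normalization, and 0.0264 and 0.0183 without control replicate 4 and mutant replicate 2, in a range from -0.0324. Over the whole table the 6 calls became 0 with no filter and 0 with no variance trend, and ranged from 0 to 3 with a library left out. No label pairs same-numbered libraries beyond the number. Their deviations correlated between -0.082 and 0.035 over 4 pairs, and 2 of 8 libraries correlated best with their own number. These values show no pairing but cannot exclude one. With the replicate block 0 genes were called over the table and 0 members. With a pseudocount of 0.1 the macrophage marker difference moved from -0.44 to -0.65 and the foregut one from -0.0049 to -0.066. With a library left out, differences in mean ratio (mutant minus control) ranged from -0.165 to -0.0841 for Gata4 to Gata6, 0.0127 to 0.0506 for Hand1 to Hand2, 0.00095 to 0.0436 for Tbx5 to Tbx20, 0.00021 to 0.00137 for Isl1 to Nkx2-5 and -0.0766 to -0.0233 for Tbx3 to Tbx5. The cause of these changes was not tested. The spread of 4 libraries per genotype limits the precision, most for Tbx5 and Isl1.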
